A study of Arabidopsis thaliana with 30 samples.

Results

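The 43 genes described here encode histones of Arabidopsis thaliana, though not all of those in the study's gene tables: 5 H3.1, 3 H3.3, 8 H4, 4 canonical H2A, 2 H2A.X, 3 H2A.W, 4 H2A.Z, 10 H2B, 1 H2B.8 and 3 linker H1 genes. They were chosen by gene identifier from 34262 genes in the first experiment and 32832 genes in the second. The question asked of them was whether genes for histones made during DNA replication and genes for histone variants respond differently when an RNA helicase of the nuclear exosome or a microprocessor protein is impaired. H3.1, H4, canonical H2A and H2B were grouped as replication-dependent (27 genes), H3.3, H2A.X, H2A.W, H2A.Z and H2B.8 as variants (13 genes), and H1 was kept apart.

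RNA was sequenced from rosette leaves of Col-0 plants that were 4 weeks old and grown with 16 h of light and 8 h of dark. The first experiment, at 22 °C, compared hen2-2 with WT. The second, at 20 °C, compared the double mutant se-2 hen2-2, the single mutants se-2 and hen2-2, and WT. Each genotype had 3 replicates. The hen2-2 allele is the T-DNA insertion line GK774_H07 in HEN2, the RNA helicase that feeds nuclear RNA to the exosome, and se-2 yields a C-terminally shortened SERRATE (SE), a zinc finger protein of the miRNA-processing complex, so se-2 is a partial loss. Each mutant was represented by 1 allele. Ribosomal RNA was depleted and poly(A) RNA was not selected.

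Histones H2A, H2B, H3 and H4 form the nucleosome core and H1 binds the DNA between nucleosomes. Canonical histone genes are transcribed mainly in S phase and their products are laid down behind the replication fork, whereas H3.3 and H2A.Z are placed into chromatin independently of replication. In plants, unlike in animals, the mRNAs of canonical histones end in a poly(A) tail. In human cells ARS2, the counterpart of SE, is known for a role in the 3′ processing of replication-dependent histone mRNAs.

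The libraries held 91.3 to 105.5 M reads in hen2-2 and 62.6 to 84.1 M reads in WT at 22 °C (M, 1e6), and 47.7 to 156.6 M counts at 20 °C, of which 51.5 to 82.7% came from organelle genes. In the first experiment each hen2-2 library was deeper than any WT library. At 20 °C, replicate 1 of every genotype and replicate 2 of hen2-2 and WT exceeded 100 M counts, and the rest had at most 58.1 M. HEN2 was lower in hen2-2 than in WT at 22 °C (log2 fold change -1.52, SE 0.14, adjusted p 0.0128) and at 20 °C (-1.43, SE 0.25, adjusted p 0.0379), and SE (the gene, AT2G27100) was lower in se-2 (-1.16, standard error 0.18, adjusted p 0.0235). Both genes were lower in se-2 hen2-2 than in WT (HEN2 -1.21, adjusted p 0.0262, and SE -1.05, adjusted p 0.0125), so no library went against its label. Elsewhere the letters SE beside a fold change stand for its standard error. Of markers for cells that a leaf sample could also hold, the meristem genes WUS and CLV3 had at most 1 read in any library, and the flower gene AP3 was at 0 in all 12 libraries at 20 °C. The 4 meristem markers together summed to between 1.04 and 1.44 CPM in hen2-2 and 1.36 to 2.77 CPM in WT at 22 °C, and the 6 flower markers to 0.626 to 0.974 CPM in hen2-2 and 1.06 to 1.94 CPM in WT, with 0 of the 5 genes tested called by edgeR. DESeq2 called the flower gene PI lower in hen2-2 (-1.93, adjusted p 0.00886), and the 3 flower markers that edgeR tested had a median of -0.89. The flower gene AG went the other way in reads, with 11 to 34 in the deeper hen2-2 libraries and 5 to 8 in WT. The reads of AP1, LFY and SEP3 overlapped between the genotypes. At 20 °C the same sums stayed at or below 1.15 CPM for meristem and 0.36 CPM for flower markers. The leaf genes RBCS1A, CAB1, CA1 and RCA each had at least 5399 reads in every library. The part of other cell types in the results was not tested. In such bulk samples, fewer dividing cells and less histone RNA per dividing cell cannot be told apart.

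The coding sequences and promoters separate the 2 H3 classes and mark the genes that share a histone promoter element. By the RefSeq annotation of TAIR10.1, the 5 H3.1 genes encode 1 protein, the 3 H3.3 genes encode 1 other protein, and the 8 H4 genes encode 1 protein. The H3.1 and H3.3 coding sequences specify different residues at 4 of 135 codons, namely codons 31, 41, 87 and 90 counted from the codon after the start. Codons 86 to 91 are shown because they hold a pair of these positions, in capitals, within otherwise synonymous sequence. Over the whole coding sequence no H3 gene shares more than 2.8% of its coding stretches of 50 bases with another member.

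HTR1: agcAGCgccgtcGCAgca
HTR2: agcAGTgccgtcGCCgct
HTR4: agcCATgctgtcTTAgct
HTR5: agcCATgctgtgCTTgca
HTR8: agtCACgcggtgTTAgct

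Counts are less certain for some H4 pairs. AT1G07820 and AT1G07660 were 98.1% identical in their coding sequence and shared 46% of their stretches of 50 bases, AT3G45930 and AT3G46320 were 97.4% identical and shared 58.2%, and AT5G59690 and AT5G59970 were 97.1% identical and shared 22.4%. All H3.1, H2B and H2B.8 genes and 5 of the 8 H4 genes were annotated with a single exon. All H3.3, H2A and H1 genes had introns. HTA12 and HTB10 overlap on opposite strands over 522 bases, so their reads are less certain.

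The histone octamer CGCGGATC, a promoter element of plant histone genes, was searched on both strands in the 250 bases before each gene's start. It stood in 10 of 43 histone genes (23.3%), against 37 of 27443 protein-coding genes (0.135%). The 10 genes were 7 of 27 replication-dependent genes (HTR1, HTR2, HTR9, AT1G07660, AT5G59690, HTA10 and HTA13), the variants HTR5 and HTA6, and H1.1. The E2F sites TTTCCCGC and TTTGGCGC, which bind the S phase transcription factor E2F, stood in 2 histone genes (4.65%), the near-identical AT3G45930 and AT3G46320. They stood in 263 protein-coding genes (0.958%) and in 7 of 15 genes of a DNA replication list (46.7%), and no E2F site overlapped an octamer. Promoter windows of 70 bases are shown, from an H3.1, an H4, a canonical H2A and an H3.3 gene, with the octamer or its reverse complement in capitals and each window read along its gene. The windows are HTR2 at chr1:2972335-2972404 (minus strand), AT5G59690 at chr5:24051372-24051441 (plus strand), HTA10 at chr1:18926741-18926810 (plus strand) and HTR5 at chr4:18558946-18559015 (minus strand) of TAIR10.1.

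HTR2: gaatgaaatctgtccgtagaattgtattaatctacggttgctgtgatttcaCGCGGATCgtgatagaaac
AT5G59690: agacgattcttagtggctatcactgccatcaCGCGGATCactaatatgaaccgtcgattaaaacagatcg
HTA10: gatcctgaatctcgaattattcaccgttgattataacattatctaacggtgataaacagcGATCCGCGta
HTR5: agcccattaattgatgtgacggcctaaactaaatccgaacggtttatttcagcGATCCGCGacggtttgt

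Levels per gene length could be compared at 22 °C, where the authors deposited TPM values (transcript levels scaled by length and library). Variants were the most abundant of the H3.1 and H3.3 messages in these leaves. The H3.3 gene HTR5 had 23.9, 20.6 and 17.3 TPM in hen2-2, against 28.8, 23.6 and 17.4 TPM in WT. HTR4, also H3.3, had 17.5, 15.2 and 14.3 TPM in hen2-2 and 22.2, 19.1 and 14.4 TPM in WT. HTR1, the highest H3.1 gene, had 5.95, 5.13 and 7.70 TPM in hen2-2, against 5.91, 5.19 and 6.95 TPM in WT. H3.3 therefore made up 71.4% ± 5.72 of the summed H3.1 and H3.3 message in hen2-2 and 74.5% ± 6.70 in WT (SD, n = 3 each). Other H3 genes were left out of this sum. The genotypes overlapped, with 74.7, 74.7 and 64.8% in hen2-2 replicates 1 to 3 and 78.7, 78.1 and 66.8% in WT, and each hen2-2 library lay below the WT library of its own number. No test was run on these shares.

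Among H2A messages, canonical H2A made up 28.0% ± 3.17 in hen2-2 and 31.5% ± 3.13 in WT, H2A.Z 38.1% ± 6.32 in hen2-2 and 32.0% ± 3.04 in WT, H2A.W 21.3% ± 0.954 in hen2-2 and 22.2% ± 1.80 in WT, and H2A.X 12.5% ± 2.22 in hen2-2 and 14.4% ± 1.67 in WT (SD, n = 3 each). Within replicate numbers the hen2-2 library was lower in canonical H2A and H2A.X and higher in H2A.Z in 3 of 3 pairs, and H2A.W went both ways. These differences depended on HTA4: without this gene, left out after its values were seen, H2A.Z made up 27.6% ± 1.55 in hen2-2 and 27.6% ± 1.90 in WT. Canonical H2A was then higher in hen2-2 in replicate 3, at 32.6% against 30.6% in WT. H2A.W was then higher in hen2-2 in each pair, at 24.0, 24.7 and 26.4% against 21.6, 23.1 and 26.2% in WT. H2A.X stayed lower in hen2-2 in each pair. HTA9 had the highest mean of the H2A.Z genes at 7.44 ± 0.710 TPM in hen2-2 and 8.67 ± 0.894 TPM in WT, although in hen2-2 replicate 3 HTA4 had 9.56 TPM and HTA9 6.64 TPM. The most abundant H4 gene, AT5G59690, had 8.85 ± 1.0 TPM in hen2-2 and 8.09 ± 1.24 TPM in WT. HTB4, HTB9 and HTB11 were the leading H2B genes, with 8.83 ± 0.693, 8.49 ± 0.991 and 8.02 ± 0.814 TPM in hen2-2 and 8.58 ± 0.894, 8.46 ± 0.403 and 8.81 ± 1.36 TPM in WT. These H2B levels and that of AT5G59690 lay within each other's spread. Of the 43 genes, 7 averaged under 1 TPM, the lowest being HTB8, which encodes the H2B.8 known from sperm and seeds, at 0.0216 ± 0.0154 TPM in hen2-2 and 0.00645 ± 0.0112 TPM in WT.

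**Figure D1:**
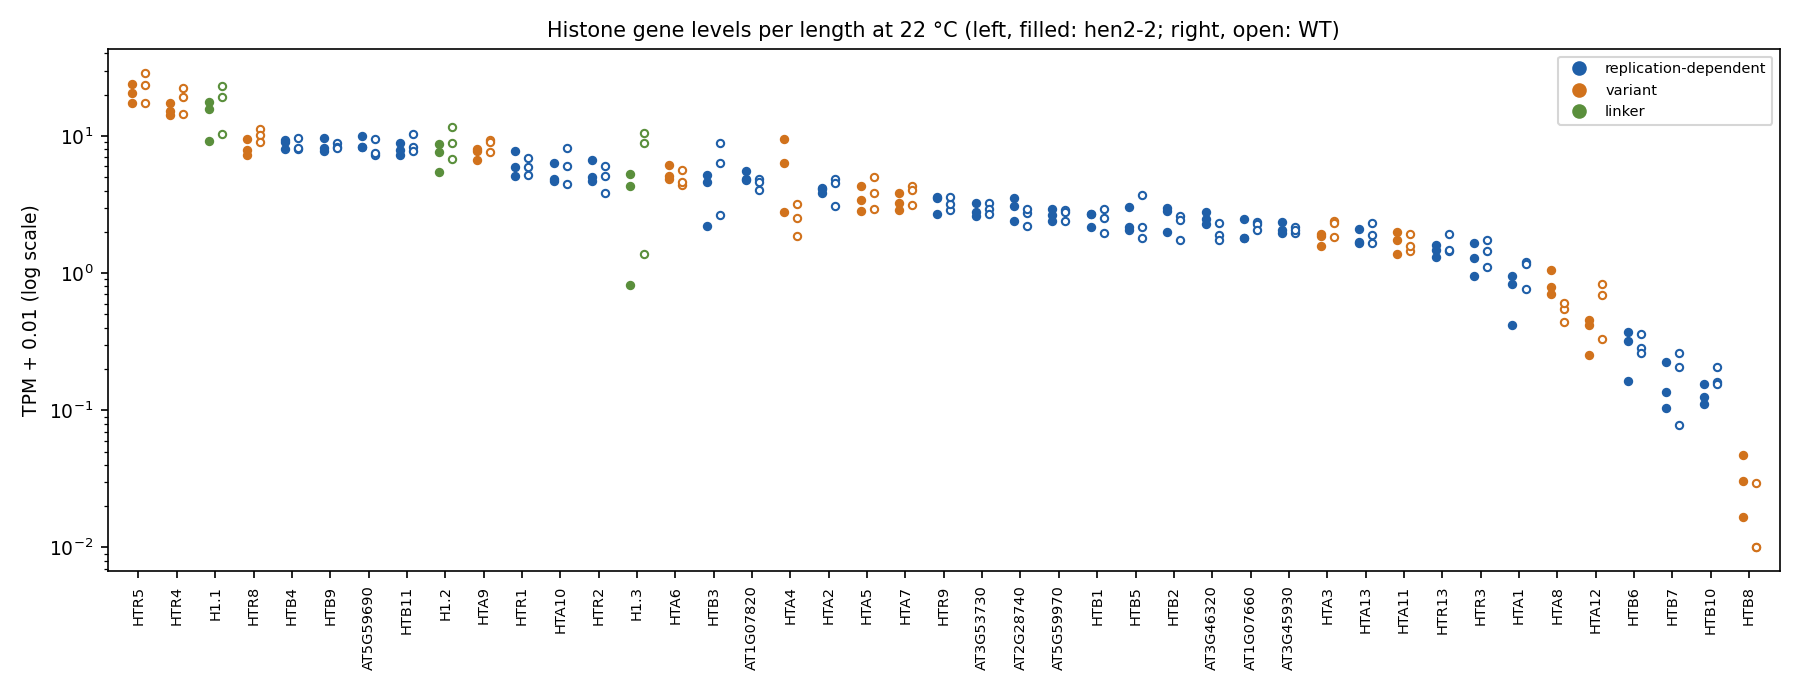
TPM of the 43 histone genes in the first experiment (22 °C), on a log axis with 0.01 added, ordered by mean level; points are libraries, filled at left for hen2-2 and open at right for WT, coloured by class. HTR5 and HTR4 lead, most replication-dependent genes lie between 1 and 10 TPM, and HTB8 is the lowest.

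The 3 linker genes differed in spread. H1.1 averaged 14.2 ± 4.41 TPM in hen2-2 and 17.5 ± 6.46 TPM in WT, and H1.2 averaged 7.30 ± 1.65 TPM in hen2-2 and 9.12 ± 2.47 TPM in WT. H1.3, the linker histone induced by stress and low light, had 5.24, 4.32 and 0.808 TPM in hen2-2 and 10.5, 8.92 and 1.36 TPM in WT. Replicate 3 was the low library of both genotypes for all 3 linker genes.

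The first comparison asked whether loss of HEN2 alone alters histone messages at 22 °C. No histone gene passed the test: edgeR's quasi-likelihood F test on 41 of the 43 genes called 0 at an adjusted p under 0.05, where 263 of 19506 genes tested were called (1.35%). At an unadjusted p under 0.05 there were 5 histone genes (13.1% of all genes tested), and DESeq2 called 1, HTA4 (3.55% of all genes). HTB8 and HTB10 had too few reads to be tested.

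Most members nevertheless lay on the higher side in hen2-2. The log2 fold change was above 0 for 24 of 26 replication-dependent genes and 10 of 12 variants, against 53.2% of all genes. The median was 0.28 for replication-dependent genes, 0.10 for variants, -0.05 for the 3 linker genes and 0.02 for all genes. The hen2-2 and WT libraries did not overlap in CPM for 9 of 41 members that were higher in hen2-2 (11.2% of all genes), 7 of them replication-dependent, and for 0 that were lower (8.64% of all genes). By subclass the median was 0.38 for H4 (8 of 8 above 0), 0.29 for H3.1 (5 of 5), 0.18 for H2B (8 of 9), 0.14 for canonical H2A (3 of 4), 0.64 for H2A.Z (4 of 4), 0.09 for H2A.W (2 of 3), 0.07 for H2A.X (2 of 2) and 0.05 for H3.3 (2 of 3). The single-exon core genes had a median of 0.30 and the core genes with introns 0.13. The 10 genes with an octamer had a median of 0.24 and the 31 others tested 0.17.

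This tilt depended on the scale. On log2(TPM + 1) and log2(TPM + 0.1), tested with limma, the median of all genes moved to -0.09 and -0.19, and that of replication-dependent genes was -0.01 on both. Relative to all genes, replication-dependent genes then stood 0.08 and 0.18 higher and variants -0.06 and 0.02, against 0.26 and 0.08 on the count scale. The median of replication-dependent genes spanned 0.18 to 0.42 when each of the 6 libraries was left out in turn.

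Libraries of the same replicate number deviated together in the first experiment, and with the replicate number as a term 11 of 41 histone genes were called (26.8%), against 12.3% of all genes. The model called 10 higher in hen2-2, against 7.08% of all genes, and 1 lower, against 5.19%. The higher ones were 7 of 26 replication-dependent genes (HTR1, HTR2, AT1G07820, AT2G28740, AT3G46320, AT5G59690 and HTB2) and 3 of 12 variants (HTA4, HTA6 and HTA8), and the lower one was H1.3. Among the replication-dependent genes so called, the log2 fold change ran between 0.35 for HTR1 (adjusted p 0.0404) and 0.67 for AT3G46320 (adjusted p 0.0207). None of these 11 genes passed in edgeR without the term, and DESeq2 without it called HTA4 alone. Without the term, leaving out 1 library in turn changed the sign of none of the 11, and the sizes of several rested on single libraries. AT1G07820 varied less, between 0.33 and 0.52. HTR1 was at 0.11 when hen2-2 replicate 3 was dropped, at 0.22 when WT replicate 1 was and at 0.57 when WT replicate 3 was. HTR2, at 0.41 with all libraries, came to 0.19 on dropping hen2-2 replicate 3, to 0.25 on dropping WT replicate 2 and to 0.68 on dropping WT replicate 3. AT2G28740, at 0.50, was at 0.31 without hen2-2 replicate 3. AT5G59690, at 0.41, came to 0.26 on dropping hen2-2 replicate 3, to 0.23 on dropping WT replicate 1 and to 0.64 on dropping WT replicate 3, and HTA6, at 0.42, to 0.26, 0.24 and 0.63 on dropping the same libraries.

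The H4 gene AT3G46320 on chromosome 3 (17019785 to 17020428), 1 of those called with the replicate term, is given by replicate number. It had 2.12, 2.25 and 2.84 CPM in hen2-2 replicates 1 to 3, against 1.22, 1.33 and 2.04 CPM in WT, where CPM is the count scaled by TMM library size. Every hen2-2 library lay above every WT library in CPM, and replicate 3 was the highest of both genotypes. On the TPM scale hen2-2 replicate 2, at 2.28, lay below WT replicate 3, at 2.30. HTR1, on chromosome 5 (26119859 to 26120581), had 6.08, 6.01 and 9.27 CPM in hen2-2 and 4.59, 4.81 and 7.40 CPM in WT. Here the genotypes overlapped, and each hen2-2 library lay above the WT library of its own number.

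Among the H2A.Z genes, HTA8 and HTA4 had the smallest p values of all histone genes at 22 °C. HTA8 (chromosome 2, 16219220 to 16220928) is a low H2A.Z gene with 0.607, 0.876 and 1.22 CPM in hen2-2 and 0.419, 0.424 and 0.539 CPM in WT. There was no overlap between the genotypes (log2 fold change 0.97, SE 0.30, adjusted p 0.21, and 0.0358 with the replicate term). HTA9, with the highest mean TPM of the H2A.Z genes in both genotypes, had a log2 fold change of 0.07 (SE 0.13).

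HTA4 had 2.68, 6.99 and 11.1 CPM in hen2-2, against 1.71, 1.83 and 2.63 CPM in WT, where the closest libraries were 2.68 and 2.63. The log2 fold change was 1.75 (SE 0.49, adjusted p 0.178, 0.0136 with the replicate term and 0.017 by DESeq2). On the TPM scale hen2-2 replicate 1, at 2.8, lay below WT replicate 3, at 3.19. The value belongs to a locus with overlapping transcription units. HTA4 lies on the plus strand of chromosome 4 (7884516 to 7885982), and MIR841a lies on the minus strand at 7885251 to 7885462, where it overlaps an HTA4 exon by 65 bases. The libraries were made with a kit that keeps strand, but the strand setting of the deposited estimates is not stated, so how reads there were split between HTA4 and MIR841a is uncertain.

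Nearly all HTA4 reads were assigned to its longer transcript, with 257, 583 and 1150 estimated reads in hen2-2 and 140, 121 and 153 in WT. MIR841a itself had 10, 14 and 40 reads in hen2-2 and 4, 8 and 6 in WT. The next gene on the same strand, AT4G13572 (7887440 to 7888748), had 231, 550 and 1079 reads in hen2-2 and 153, 125 and 196 in WT, and replicate 3 was highest in both genotypes, as for HTA4. Further along, on the minus strand, AT4G13575 (7890249 to 7893761) had 968, 2278 and 8819 reads in hen2-2 and 293, 408 and 1168 in WT at 22 °C, and 931, 1384 and 2081 counts in se-2 hen2-2, 394, 824 and 1106 in se-2, 4325, 16555 and 6892 in hen2-2 and 1574, 5114 and 3811 in WT at 20 °C. These neighbours were chosen after their values were seen, and their part in the HTA4 reads was not tested. In the count table of the second experiment HTA4 and AT4G13572 were listed at 0 in all 12 libraries, whereas MIR841a had 13, 24 and 23 counts in se-2 hen2-2, 11, 5 and 19 in se-2, 134, 159 and 79 in hen2-2 and 39, 79 and 19 in WT. HTA4 and AT4G13572 had over 100 reads in every library at 22 °C, and whether the zeros reflect the counting or the plants was not tested.

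**Figure D2:**
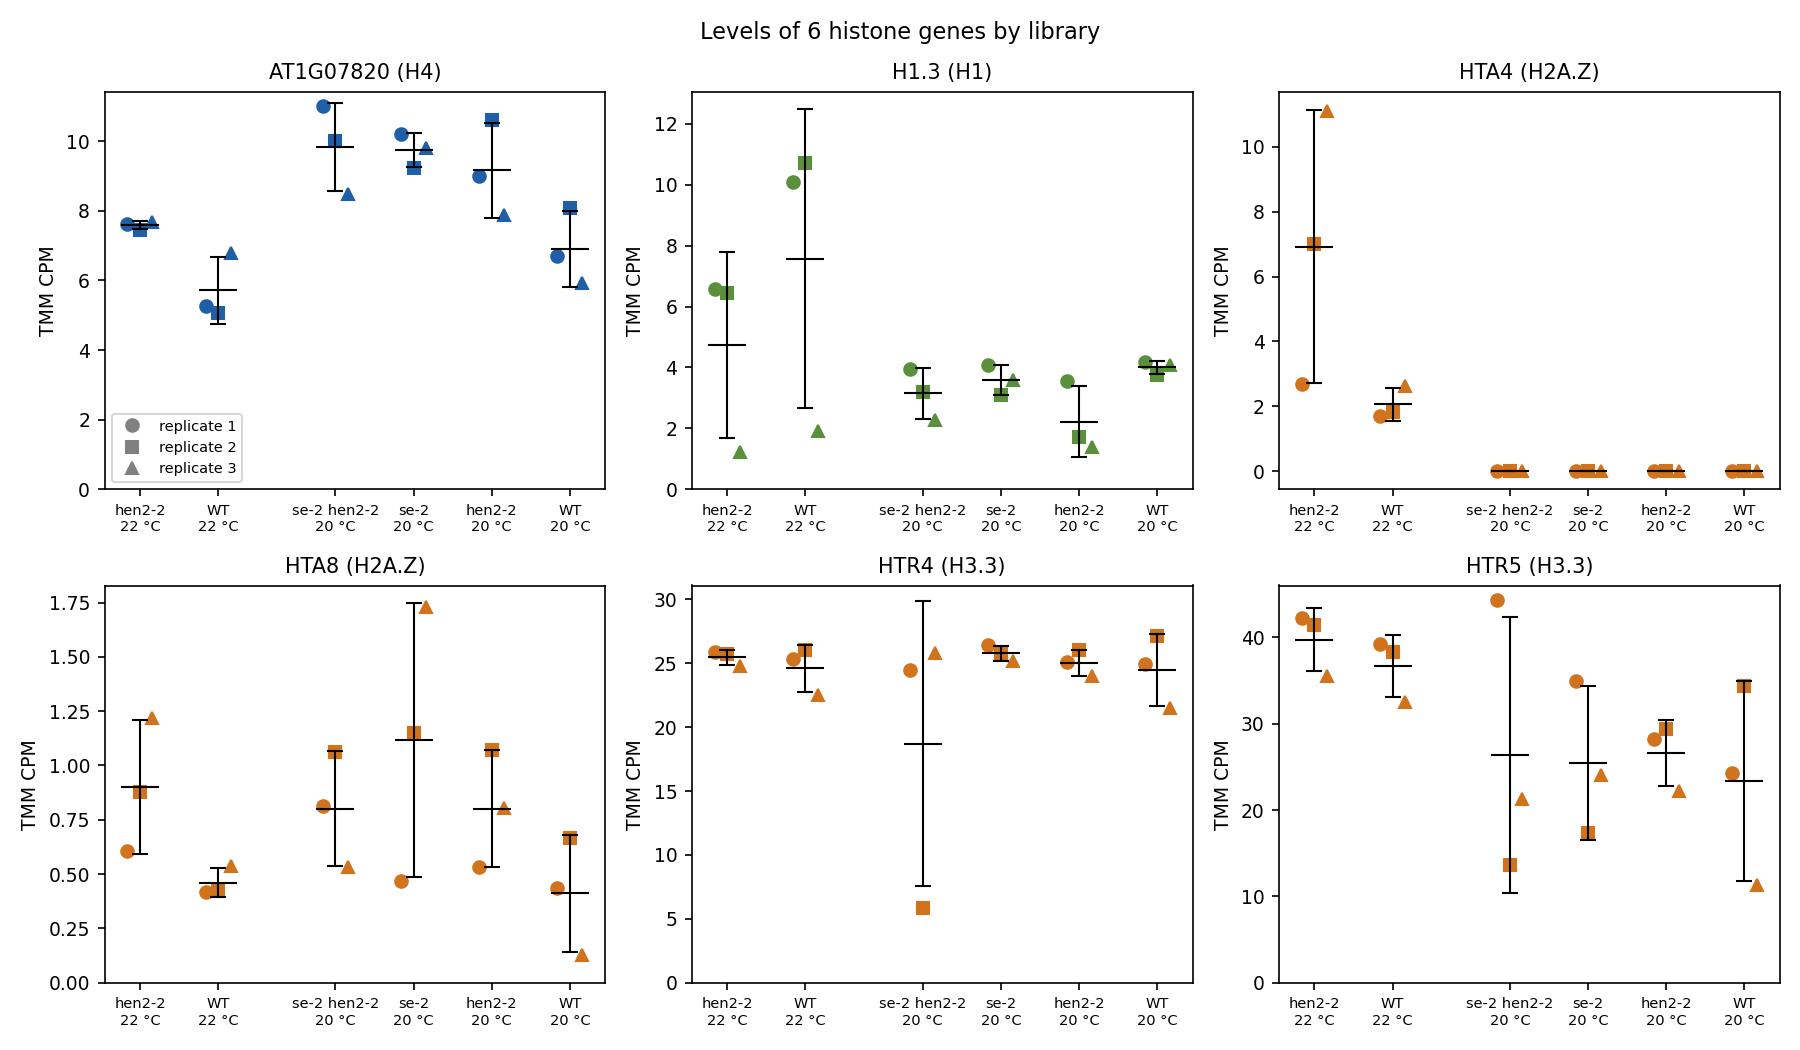
TMM CPM of 6 histone genes in every library, by genotype and temperature; symbols are replicate numbers, and the bar and whiskers are the mean and SD of 3 libraries. AT1G07820 has its lowest mean in WT at both temperatures, H1.3 is low in replicate 3 of both genotypes at 22 °C, HTA4 is listed at 0 at 20 °C, and HTR4 is low in replicate 2 of se-2 hen2-2.

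Genes of dividing cells lay on the same side as the histone genes at 22 °C. Of a list of 15 DNA replication genes 14 had a log2 fold change above 0 (median 0.24), as did 13 of 15 mitosis genes (median 0.34), and 0 of either list were called. The smallest p values belonged to TSO2, a subunit of ribonucleotide reductase (0.43, SE 0.17, adjusted p 0.344), ORC1B of the origin recognition complex (0.58, SE 0.24, adjusted p 0.364), and the mitotic cyclins CYCB1;1 (0.73, SE 0.18, adjusted p 0.141) and CYCB1;2 (0.42, SE 0.13, adjusted p 0.207). The mitosis genes summed to 15.6, 16.5 and 16.7 CPM in hen2-2 and 11.3, 14.8 and 12.9 CPM in WT, without overlap. Replication-dependent histones summed to 128, 125 and 145 CPM in hen2-2 and 103, 105 and 125 CPM in WT, where hen2-2 replicate 2 and WT replicate 3 were both at 125 CPM. The DNA replication genes summed to 39.2, 39.0 and 50.9 CPM in hen2-2 and 31.5, 33.6 and 42.2 CPM in WT. Replicate 3 was highest within its genotype in the histone and DNA replication sums. The part of dividing cells in the histone values was not tested.

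The list of S phase regulators, which holds E2F, RBR1 and D-type cyclins, showed no such tilt, with 3 of 7 genes above 0 and a median of -0.02. Histone chaperones and exchange factors had a median of 0.06, with 11 of 17 above 0 and 0 called. Their smallest p values were those of ARP6, a subunit of the SWR1 complex that deposits H2A.Z (-0.54, SE 0.17, adjusted p 0.229), and the H3-H4 chaperone ASF1A (0.47, SE 0.19, adjusted p 0.364). Of the 6 other H3 genes only HTR11 and the centromeric HTR12 could be tested, and neither passed (HTR11 2.33, SE 0.49, adjusted p 0.0876, and HTR12 0.30, SE 0.34, adjusted p 0.779).

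**Figure D3:**
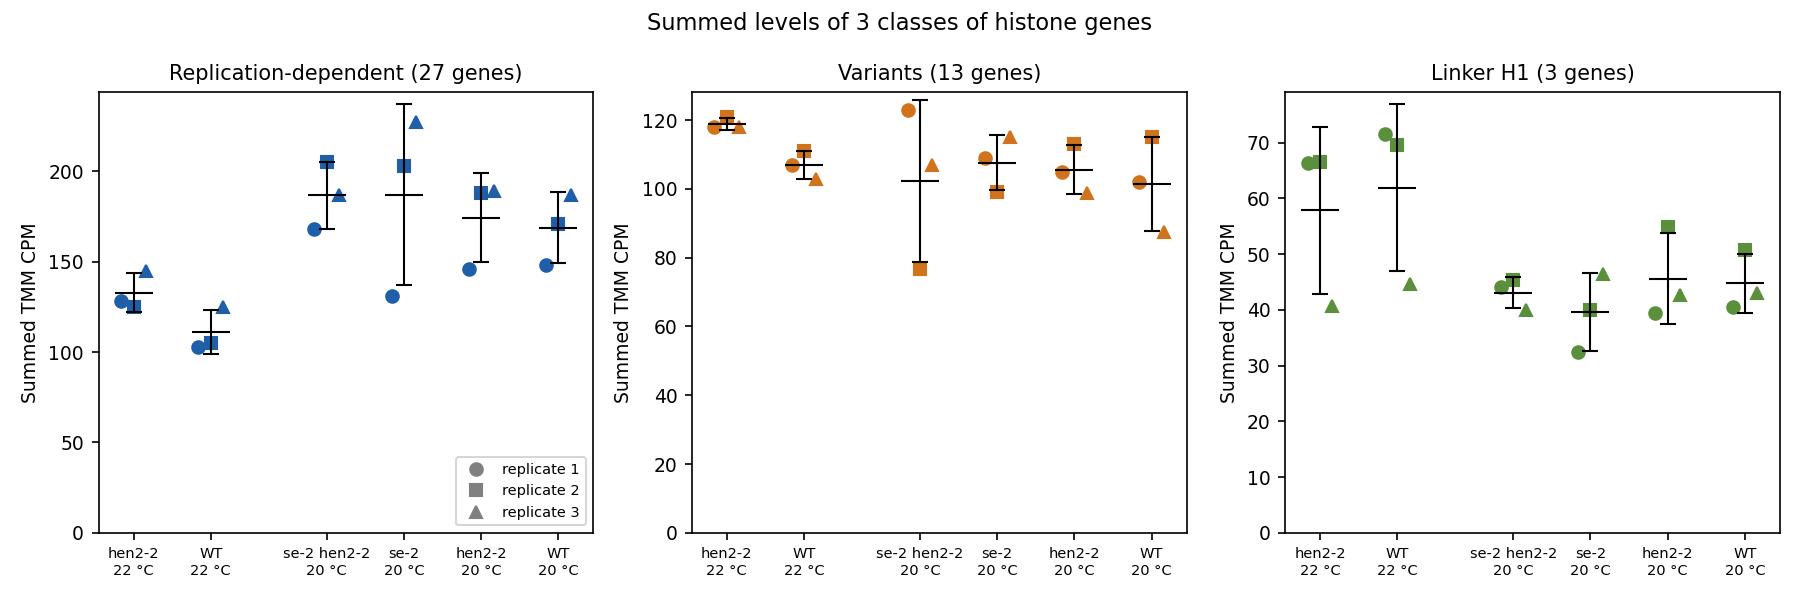
Summed TMM CPM of the replication-dependent, variant and linker histone genes in every library, by genotype and temperature; symbols are replicate numbers, and the bar and whiskers are the mean and SD of 3 libraries. Replicate 1 is the lowest replication-dependent sum in all 4 genotypes at 20 °C, and the variant sum is lowest, at 76.7, in replicate 2 of se-2 hen2-2.

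At 20 °C the summed replication-dependent level differed more between replicates than between genotypes. Replication-dependent genes summed to 168, 205 and 187 CPM in se-2 hen2-2 replicates 1 to 3, to 131, 203 and 227 CPM in se-2, to 146, 188 and 189 CPM in hen2-2 and to 148, 171 and 187 CPM in WT. Replicate 1 was lowest in each genotype, and it was the lowest library for 13 of 27 replication-dependent genes in se-2 hen2-2, 22 in se-2, 23 in hen2-2 and 20 in WT. These 4 libraries were among those of over 100 M counts. Some other lists were lowest in the same libraries. The DNA replication genes summed to 41.9, 34.5, 39.0 and 36.2 CPM in replicate 1 of se-2 hen2-2, se-2, hen2-2 and WT, against 44.7 to 67.2 CPM in the other libraries. The S phase regulators summed to 16.9, 18.9, 17.5 and 15.5 CPM, each below the other libraries of its genotype, which reached 31.1 CPM. The meristem markers summed to 0.0563, 0, 0 and 0 CPM in replicate 1, against 0.146 to 1.15 CPM. The mitosis genes summed to 10.4, 9.6, 9.41 and 11.8 CPM in replicate 1. This was the lowest library of each mutant but not of WT, where replicate 2 had 11.7 CPM. The flower markers went the other way, at 0.346, 0.354, 0.36 and 0.317 CPM in replicate 1, the highest library of each genotype. The part of dividing cells and of depth in the replicate 1 sums was not tested. Variants summed to 123, 76.7 and 107 CPM in se-2 hen2-2, 109, 99.0 and 115 CPM in se-2, 105, 113 and 98.8 CPM in hen2-2 and 102, 115 and 87.6 CPM in WT. The mutants overlapped WT in both sums.

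The comparison of hen2-2 with WT at 20 °C called 0 of 41 histone genes with edgeR (0.308% of all genes), and 2 had an unadjusted p under 0.05 (5.27% of all genes). DESeq2 called 0 (1.09% of all genes). The median log2 fold change was 0.06 for 27 replication-dependent genes (16 above 0) and 0.12 for 11 variants (7 above 0), against 0.00 for all genes. H4 genes had a median of 0.13 with 8 of 8 above 0, while H3.1 had -0.05 with 2 of 5 and canonical H2A -0.20 with 1 of 4. HTR1, at 7.08, 9.48 and 9.90 CPM in hen2-2 and 7.07, 7.94 and 9.47 CPM in WT, had a log2 fold change of 0.11 (SE 0.25), and HTB4, the highest H2B gene, of -0.02 (SE 0.21).

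H1.3 (chromosome 2, 7845923 to 7847031) had the smallest p of this comparison. It had 3.56, 1.72 and 1.38 CPM in hen2-2, against 4.17, 3.75 and 4.08 CPM in WT. Every hen2-2 library lay below every WT library, with a log2 fold change of -0.84 (SE 0.33, adjusted p 0.739). DESeq2 with the replicate number as a term called it lower (-0.93, adjusted p 0.0373), as it called 3.37% of all genes, and edgeR with that term did not (adjusted p 0.153). At 22 °C it had 6.57, 6.44 and 1.22 CPM in hen2-2 and 10.1, 10.7 and 1.93 CPM in WT, so in both experiments each hen2-2 library lay below the WT library of its own number. The log2 fold change at 22 °C was -0.68 (SE 0.78, adjusted p 0.784) without the replicate term and -0.67 (adjusted p 0.00613) with it. Without the term it was -0.22 when hen2-2 replicate 3 was left out, and -0.42, -0.35 and -1.16 when WT replicates 1, 2 and 3 were left out in turn. In se-2 hen2-2, H1.3 had 3.96, 3.21 and 2.28 CPM, against 4.07, 3.1 and 3.58 CPM in se-2, and these groups overlapped.

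The comparison of se-2 with WT called 0 of 41 histone genes (0.324% of all genes). An unadjusted p under 0.05 was reached by 2 (7.09% of all genes), and DESeq2 called 0 (1.44% of all genes). Medians were 0.09 for replication-dependent genes (16 of 27 above 0), 0.07 for variants (8 of 11 above 0) and 0.00 for all genes. H2B genes had a median of 0.20 with 8 of 10 above 0, and H4 genes -0.04 with 3 of 8. HTA8 had 0.469, 1.15 and 1.73 CPM in se-2, against 0.436, 0.667 and 0.130 CPM in WT, with overlap (log2 fold change 1.41, SE 0.63, adjusted p 0.68).

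The double mutant had the most calls among all genes, 463 of 19454 (2.38%), and again 0 of 41 histone genes. An unadjusted p under 0.05 was reached by 1 histone gene (14.6% of all genes), and DESeq2 called 0 (5.06% of all genes). The median was 0.15 for replication-dependent genes (17 of 27 above 0) and -0.03 for variants (5 of 11 above 0), against 0.01 for all genes. H2B genes had a median of 0.28 with 9 of 10 above 0 and ranged over -0.09 to 0.78, while H3.1 genes had -0.03 with 1 of 5. Leaving out replicate 2 of se-2 hen2-2 brought the replication-dependent median to 0.03 and the variant median to 0.07.

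The H4 gene AT1G07820 (chromosome 1, 2421089 to 2422066) had the smallest p when either the double mutant or the se-2 single mutant was compared with WT. It had 11, 10.0 and 8.48 CPM in se-2 hen2-2, 10.2, 9.23 and 9.80 CPM in se-2, 9.0, 10.6 and 7.89 CPM in hen2-2 and 6.70, 8.07 and 5.92 CPM in WT. Every se-2 hen2-2 and se-2 library lay above every WT library, and hen2-2 overlapped WT by its replicate 3. Against the same WT libraries, the log2 fold change was 0.51 in se-2 hen2-2 (SE 0.17, adjusted p 0.183), 0.50 in se-2 (SE 0.17, adjusted p 0.467) and 0.41 in hen2-2 (SE 0.17, adjusted p 0.869). With depth above 100 M counts as a covariate, the fit put se-2 hen2-2 past the threshold (0.60, adjusted p 0.0454), along with 4.16% of all genes.

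In the first experiment, which shares no library with the second, AT1G07820 had 7.63, 7.45 and 7.67 CPM in hen2-2 and 5.26, 5.07 and 6.80 CPM in WT, without overlap in CPM (0.41, SE 0.15, adjusted p 0.287, and 0.0477 with the replicate term). On the TPM scale the genotypes overlapped: hen2-2 replicates 2 and 3, at 4.85 and 4.79, lay below WT replicate 1, at 4.88. The files of that experiment separate an unspliced transcript of 978 bases, which is the full length of the gene, and a spliced one of 859 bases. The spliced one had 5.22, 5.88 and 5.35 CPM in hen2-2, against 2.90, 3.53 and 3.71 CPM in WT, and the unspliced one had 2.41, 1.58 and 2.32 CPM in hen2-2 and 2.36, 1.54 and 3.09 CPM in WT. In CPM the genotypes were apart for the spliced transcript and overlapped for the unspliced one.

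The near-identical AT1G07660 (chromosome 1, 2368833 to 2369735) was the next gene in the double mutant. It had 2.87, 3.45 and 3.13 CPM in se-2 hen2-2, 2.01, 2.94 and 1.65 CPM in se-2, 2.61, 2.36 and 2.98 CPM in hen2-2 and 2.25, 2.34 and 2.26 CPM in WT. The log2 fold change of se-2 hen2-2 was 0.46 against WT (SE 0.23, adjusted p 0.387) and 0.52 against se-2 (SE 0.23, adjusted p 0.442). The other 6 H4 genes had log2 fold changes between -0.30 and 0.38 in se-2 hen2-2 against WT.

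**Figure D4:**
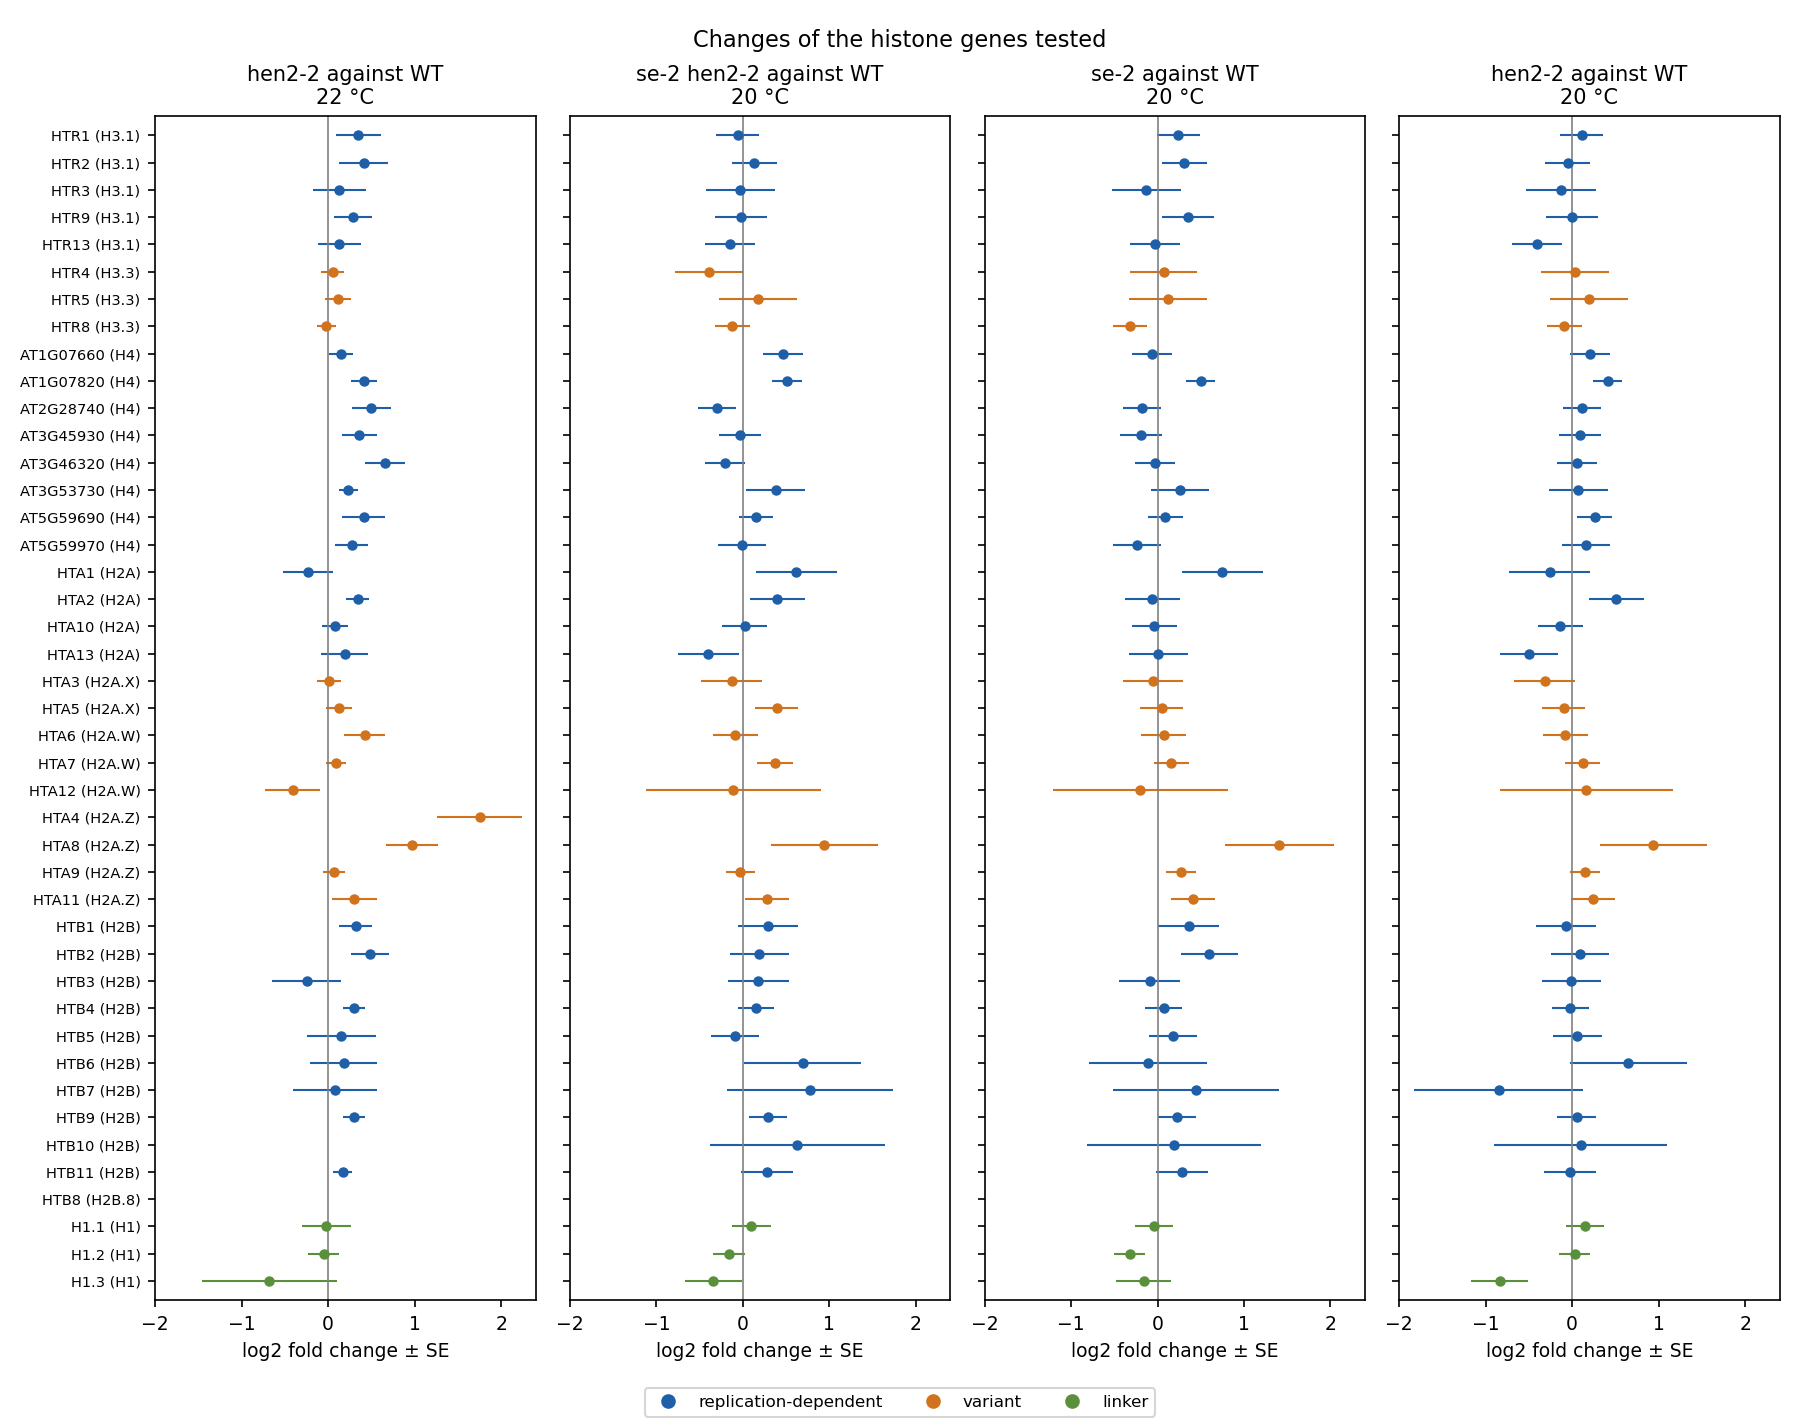
Log2 fold change with its standard error for each histone gene tested in 4 comparisons with WT, grouped by subclass down the page and coloured by class; the line marks no change. At 22 °C most replication-dependent genes lie right of the line, at 20 °C members scatter on both sides, and low genes such as HTB7, HTB10 and HTA12 have the widest errors.

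HTR4 and HTR5, the H3.3 genes that lie 42 bases apart on the minus strand of chromosome 4, differed widely between single libraries at 20 °C. HTR4 had 24.5, 5.85 and 25.8 CPM in se-2 hen2-2, 26.4, 25.7 and 25.2 CPM in se-2, 25.1, 26.0 and 24.0 CPM in hen2-2 and 24.9, 27.1 and 21.5 CPM in WT. Replicate 2 of se-2 hen2-2 thus stood apart from the other 11 libraries. With it, the log2 fold change of se-2 hen2-2 against WT was -0.39 (SE 0.39, adjusted p 0.726), and without it 0.04 (SE 0.16, adjusted p 0.976).

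HTR5 had 44.3, 13.6 and 21.3 CPM in se-2 hen2-2, 34.9, 17.3 and 24.1 CPM in se-2, 28.2, 29.4 and 22.2 CPM in hen2-2 and 24.3, 34.4 and 11.3 CPM in WT. No genotype was set apart, and HTR5 had 24.3 to 44.3 CPM in the 6 libraries of over 100 M counts and 11.3 to 24.1 CPM in the other 6. The third H3.3 gene, HTR8, had 12.8, 9.55 and 8.07 CPM in se-2 hen2-2 and 10.1, 11.7 and 11.4 CPM in WT. At 22 °C all 3 had log2 fold changes between -0.02 and 0.11.

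HTA10, HTA6, AT5G59690 and H1.1 overlapped between each mutant and WT at 20 °C. The canonical H2A gene HTA10 had 7.31, 9.42 and 8.55 CPM in se-2 hen2-2, 5.01, 8.93 and 10.3 CPM in se-2, 5.32, 8.31 and 8.98 CPM in hen2-2 and 7.82, 8.52 and 8.51 CPM in WT. HTA6, an H2A.W gene of heterochromatin, had 7.85, 9.29 and 9.95 CPM in se-2 hen2-2, 6.42, 10.5 and 13.5 CPM in se-2, 7.24, 9.44 and 10.7 CPM in hen2-2 and 8.52, 8.74 and 11.7 CPM in WT. The H4 gene AT5G59690 had 16.2, 13.9 and 10.6 CPM in se-2 hen2-2, 12, 11.7 and 15.4 CPM in se-2, 13.9, 16.9 and 13.1 CPM in hen2-2 and 12.7, 13.9 and 10.2 CPM in WT. Against WT, none of these 3 genes had a log2 fold change outside -0.14 to 0.26, with standard errors of 0.20 to 0.26. The linker gene H1.1 had 21.6, 21.3 and 19.9 CPM in se-2 hen2-2 and 16.7, 23.4 and 18.8 CPM in WT (0.10, SE 0.22), and HTB8 had at most 0.155 CPM in any library.

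Adding 1 mutation to the other gave no call either. Against se-2, the double mutant had 0 of 41 histone genes called (0.884% of all genes), 1 with an unadjusted p under 0.05 (10.9% of all genes) and 0 by DESeq2 (2.57% of all genes). HTA9, with AT1G07660 one of the pair with the smallest p, had 10.9, 8.10 and 10.8 CPM in se-2 hen2-2, against 11.6, 12 and 13 CPM in se-2, without overlap (-0.30, SE 0.17, adjusted p 0.592). All 3 H2A.Z genes tested were below 0 here, with a median of -0.30, and above 0 in se-2 against WT, with a median of 0.41. Both comparisons share the se-2 libraries.

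Against hen2-2, the double mutant had 0 of 41 called (0.529% of all genes), 0 with an unadjusted p under 0.05 (10.1% of all genes) and 0 by DESeq2 (2.14% of all genes). HTA5, an H2A.X gene of the DNA damage response, had 6.90, 13.2 and 13.6 CPM in se-2 hen2-2 and 7.89, 7.64 and 8.30 CPM in hen2-2 (0.50, SE 0.25, adjusted p 0.551). Replicate 1 of the double mutant was below all hen2-2 libraries and the other replicates above them. AT2G28740, an H4 gene, had 5.18, 4.13 and 4.44 CPM in se-2 hen2-2, against 5.30, 6.09 and 6.96 CPM in hen2-2, without overlap (-0.41, SE 0.22, adjusted p 0.577).

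The interaction term, which asks whether the double mutant departs from the sum of both single effects, called 0 of 41 histone genes (0.0154% of all genes), 0 with an unadjusted p under 0.05 (5.60% of all genes) and 0 by DESeq2 (0.544% of all genes). Its median was 0.05 for replication-dependent genes and -0.08 for variants. The smallest p values were those of HTA9 (-0.44, SE 0.24, adjusted p 0.969) and HTA8 (-1.41, SE 0.87, adjusted p 0.995).

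Of the other lists at 20 °C, the DNA replication genes called 0 of 15 in each comparison, with medians of 0.00 in se-2 hen2-2, 0.23 in se-2 and -0.10 in hen2-2, each against WT. Mitosis genes called 0 of 14 tested, with medians of 0.22 in se-2 hen2-2, 0.11 in se-2 and 0.49 in hen2-2. Chaperones and exchange factors called 0 of 17, with medians of -0.28 in se-2 hen2-2, -0.07 in se-2 and -0.16 in hen2-2. The chaperone NAP1;3 had the smallest p of them in se-2 hen2-2 against WT (-0.45, SE 0.16, adjusted p 0.207). Leaf marker genes summed to 2770, 2960 and 3040 CPM in se-2 hen2-2, 4000, 3520 and 3510 CPM in se-2, 4450, 4920 and 3980 CPM in hen2-2 and 4670, 4910 and 3900 CPM in WT. The double mutant was thus below all other genotypes in its leaf markers, and the part of tissue make-up in its histone values was not tested.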

How the data were processed

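RNA-seq libraries of 18 leaf samples were used: 3 each of hen2-2 and WT at 22 °C and 3 each of se-2 hen2-2, se-2, hen2-2 and WT at 20 °C. Another 12 small RNA libraries were not used here. For the first experiment the authors deposited estimated counts and TPM per transcript (55522 entries used) in salmon's layout, and for the second a table of counts per gene made with HISAT2, StringTie and prepDE on TAIR10. Tool versions, strand settings and the read length given to prepDE are not given in the sources used here.

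Estimated counts were summed per gene and rounded, and 2 spike entries were left out. Tests used edgeR 4.0.16 (TMM, filterByExpr, quasi-likelihood F test, two-sided, Benjamini-Hochberg over all genes, threshold 0.05), with limma 3.58.1 and DESeq2 1.42.0 in R 4.3.3 as alternatives. The 12 libraries at 20 °C shared 1 fit with 6 contrasts. The edgeR step was tested on simulated data. The p-values set a difference against the spread between the 3 replicates within groups. In the main tests at 20 °C this spread was estimated over all 12 libraries together, including genotypes outside the comparison.

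The study does not say whether equal replicate numbers mark shared batches. Correlations of deviations between same-numbered libraries were 0.61, 0.35 and 0.69 for hen2-2 and WT at 22 °C. They were 0.50, 0.32 and 0.28 for hen2-2 and WT at 20 °C, and 0.53, 0.13 and 0.21 for se-2 hen2-2 and se-2. The main tests were unpaired, and the replicate number entered as a term only in the alternatives. At 20 °C the same-numbered libraries of these pairs were also alike in depth, both deeper or both shallower. Whether the correlations there follow depth or shared batches was not tested.

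The members, the other gene lists and the motifs were chosen with earlier results of these data known. Members named in full are those called in a comparison, the highest member of each subclass at 20 °C and the 2 with the smallest p of each comparison without a call, and any other named member was chosen after its values were seen. Gene models, coding sequences and promoters came from RefSeq TAIR10.1, and all 43 members matched by locus. Alternatives were RLE size factors, no filter, nuclear genes only, the replicate number as a term, a term for libraries of over 100 M counts, the genotypes compared alone, log2(TPM + 1) or log2(TPM + 0.1) by limma, DESeq2 with and without the replicate, and every library left out in turn. Plots were made with Python 3.11.15.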

Additional observations from a re-analysis of the deposited data

How the results depend on the processing

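The count of histone genes called, 0 in every comparison by edgeR, stayed 0 with RLE size factors, without the filter, with nuclear genes only, with the compared genotypes alone and with each library left out. Some fits at 22 °C could hardly give another count. Leaving out hen2-2 replicate 2, WT replicate 1 or WT replicate 2 left 0 calls over all genes. Leaving out hen2-2 replicate 1 left 1 higher and 1 lower. The histone count at 22 °C became 11 with the replicate block (12.3% of all genes) and 1 with DESeq2 (3.55% of all genes). At 20 °C it became 1 in hen2-2 against WT (H1.3, with 3.37% of all genes) and 1 in se-2 against WT (AT1G07820, with 5.21% of all genes) with DESeq2 and the replicate block. In se-2 hen2-2 against WT it became 1 with the replicate block in edgeR, 1 with that block in DESeq2 and 1 with the term for libraries of over 100 M counts, each time AT1G07820. In that order these fits called 8.04, 11.4 and 4.16% of all genes. Deviations of same-numbered libraries correlated at 0.45, 0.01 and 0.18 for se-2 and WT in replicates 1 to 3. For se-2 hen2-2 and WT they correlated at 0.38, 0.01 and 0.14, so by number both mutants pair only weakly with WT. AT1G07820 had 0.52 (adjusted p 0.0487) in edgeR and 0.51 (adjusted p 0.0135) in DESeq2 under the block in the double mutant, and 0.51 (adjusted p 0.0258) in se-2 under the DESeq2 block. The block changed no other call of a member in the 20 °C comparisons.

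On log2(TPM + 1) and log2(TPM + 0.1) the median of replication-dependent genes at 22 °C was -0.01 and -0.01, and that of variants -0.15 and -0.17. With 1 library left out, the variant median ranged over 0.07 to 0.21 in se-2 against WT, -0.31 to 0.11 in se-2 hen2-2 against se-2 and -0.30 to 0.01 in the interaction, with 0.21 and -0.31 reached without se-2 replicate 1, 0.11 without se-2 replicate 3 and -0.30 without se-2 hen2-2 replicate 1. Over all genes, 263 were called at 22 °C, 2394 with the replicate block, 950 with DESeq2 and 0 to 268 with 1 library left out. In hen2-2 against WT at 20 °C 60 were called, 179 with the block, 262 with DESeq2, 811 with both, 138 with the depth term, 25 with these genotypes alone and 23 to 61 with 1 library left out. In se-2 against WT the numbers were 63, 397, 346, 1255, 124, 5 and 16 to 71, in se-2 hen2-2 against WT 463, 1564, 1219, 2736, 810, 163 and 159 to 460, against se-2 172, 726, 618, 1734, 432, 55 and 48 to 160, and against hen2-2 103, 718, 516, 1696, 310, 26 and 17 to 100. The interaction called 3, 84, 131, 765 and 9 under the first 5 of these and 0 to 4 with 1 library left out. Histone genes such as HTB8 with under 1 CPM are limited by depth, and HTA4 at 20 °C could not be tested.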
